A study of Mus musculus with 9 samples.

Results

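The 10 genes described here encode partners that set variant forms of Polycomb repressive complex 1 (PRC1) apart and enzymes, with a cofactor, that take ubiquitin off histone H2A. They were chosen by gene symbol (Rybp, Yaf2, Kdm2b, Bcor, Bcorl1, L3mbtl2, Bap1, Usp16, Asxl1 and Mysm1), and all 10 were found among the 20512 symbols of the deposited expression table. RNA of intact mouse tongue was sequenced in 9 libraries from animals of about 6 weeks on a mixed C57/Bl6 and FVB/NJ background. The 5 control libraries came from mice with K14-rtTA only, and the 4 Bmi1 transgene libraries from mice with K14-rtTA and TREFLBmi-1, an inducible Bmi1. Mice of both genotypes carried K14-rtTA and received 2 mg/mL doxycycline in the water for 1 week. The keratin 14 promoter is active in basal epithelial cells, whereas the RNA came from all cells of the tongue, muscle included. In such bulk tissue, fewer cells of a type and less RNA per cell cannot be told apart.

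PRC1 places a single ubiquitin on histone H2A through its RING1 or RNF2 subunit, and this mark helps to keep genes silent. In canonical PRC1 a CBX protein guides the complex and BMI1 or a close paralogue fills the PCGF position. Variant complexes carry RYBP or YAF2 in place of CBX and use other partners to reach chromatin, among them KDM2B, which binds unmethylated CpG sites. Deubiquitinases such as BAP1, USP16 and MYSM1 remove the mark. The comparison asks whether transcripts of these partners and erasers differ in tongues with induced Bmi1.

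Values are deposited log2 normalized expression, the depth of each library is unknown, and each difference is transgene minus control. The main test was limma with terms for 3 sets of libraries, called strata, between which the deposited values hold no difference beyond the group means. Replicate 1 of each group forms stratum 1. Control replicates 2 and 3 form stratum 2 with transgene replicates 2, 3 and 4, and the remaining control replicates, 4 and 5, form stratum 3. Stratum 3 has no transgene library, so with stratum terms it adds to the spread but not to the difference. Without replicate 1 of either group, stratum 2 alone then sets the difference. The group-only fit, which has no stratum terms, gives the same differences but counts 7 residual directions where 5 hold variation, so its p-values run too small. Ranges, SDs and the separation of groups also come from values that lack spread between strata, so they may look tighter than they were. No label states that the libraries come from separate animals, so p-values measure the spread between libraries, which may be technical.

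Bmi1, the induced gene, stood at 10.74, 10.21, 10.24, 10.45 and 10.34 in control replicates 1 to 5 and at 12.49, 12.05, 14.87 and 11.94 in transgene replicates 1 to 4. All 4 transgene libraries lay above all controls, and transgene replicate 3 was highest. The difference was 2.44 (SE 0.60, adjusted p 0.0672 in limma with stratum terms, 0.00719 in the group-only fit), and it was 1.77 without transgene replicate 3 (adjusted p 1.61e-06 with stratum terms).

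Among the 10 genes, Mysm1 alone had all 4 transgene libraries above all 5 controls, as had 9.76% of all tested genes. Its mean difference was 0.23 on the log2 scale, or 17.2%. Bcor, Bcorl1, Asxl1 and Rybp were higher on average by 0.12 to 0.20, with overlapping groups and with a difference of the other sign in stratum 1. Kdm2b, L3mbtl2, Bap1, Usp16 and Yaf2 lay within 0.06 of no difference. With stratum terms limma called 0 of the 10 genes at an adjusted p under 0.05, where 0.511% of 14490 tested genes were called higher and 1.15% lower. At an unadjusted p under 0.05 it had 2 of the 10 higher (Mysm1 and Bcor) and 0 lower, beside 11.2% of all tested genes higher. The group-only fit called the same 2, Mysm1 and Bcor, as higher and 0 as lower, while it called 11.7% of tested genes higher and 12.7% lower. The median difference was 0.08 over the 10 genes and 0.00 over all tested genes.

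**Figure D1:**
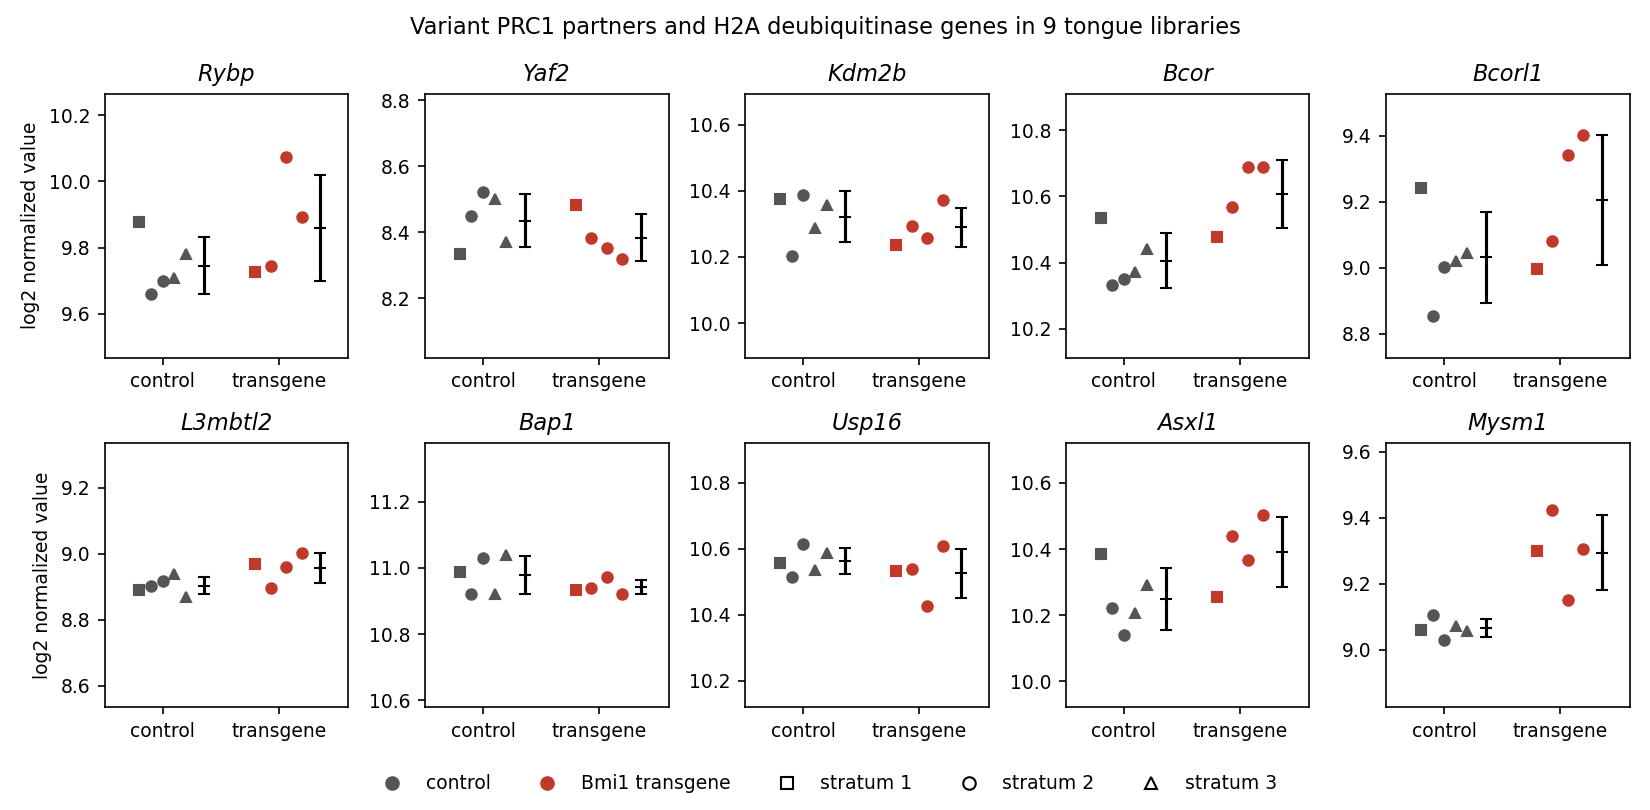
Deposited log2 normalized value (vertical axis, 0.8 log2 units in every panel) of each gene in the 5 control libraries (grey) and 4 Bmi1 transgene libraries (red). Squares, circles and triangles mark strata 1, 2 and 3, and bars give mean ± SD. Mysm1 lies above all controls in all transgene libraries, as do 9.76% of all tested genes. Control replicate 1 (grey square) is the highest control for Rybp, Bcor, Bcorl1 and Asxl1.

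Levels can be set side by side only per length, so the log2 value was divided on the linear scale by the length in kilobases of the longest GENCODE M21 transcript. On this log2 per-kilobase scale Bap1 had the highest control level at 9.03, followed by Usp16 at 8.72 and Kdm2b at 7.95. Next came Bcor (7.61), Rybp (7.57), Yaf2 (7.53) and Asxl1 (7.45), whose neighbouring control ranges overlap. L3mbtl2 stood lower at 6.69. Mysm1 (6.17) and Bcorl1 (6.14) were lowest and overlap each other. In controls the range of Kdm2b overlapped with neither Bcor nor Rybp. In the transgene group Kdm2b (7.862 to 7.999) overlapped with Bcor (7.684 to 7.895) and with Rybp (7.556 to 7.903). The longest transcript need not be the one made in tongue, which limits this order. Kdm2b, for example, has several annotated starts, and the gene-level value does not separate the form with the demethylase domain from the form without it.

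The RefSeq promoter table (GRCm38.p6) holds 8 of the 10 genes, without Rybp and Yaf2. The stretch of 200 bases that ends 50 bases before the first listed start is shown for Mysm1, Bcor and Asxl1, the members with the lowest unadjusted p, and for Bap1, the member with the highest level per length. Each reads 5′ to 3′ on the strand of its gene, and capitals mark every CG, the dinucleotide that KDM2B can bind when unmethylated. The windows are chr4:94979151-94979350 (minus strand), chrX:12160406-12160605 (minus), chr2:153345580-153345779 (plus) and chr14:31251239-31251438 (plus).
Mysm1: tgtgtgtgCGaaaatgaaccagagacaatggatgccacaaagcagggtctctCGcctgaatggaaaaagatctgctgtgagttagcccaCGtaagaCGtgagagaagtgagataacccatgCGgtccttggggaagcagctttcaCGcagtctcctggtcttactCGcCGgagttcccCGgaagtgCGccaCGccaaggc
Bcor: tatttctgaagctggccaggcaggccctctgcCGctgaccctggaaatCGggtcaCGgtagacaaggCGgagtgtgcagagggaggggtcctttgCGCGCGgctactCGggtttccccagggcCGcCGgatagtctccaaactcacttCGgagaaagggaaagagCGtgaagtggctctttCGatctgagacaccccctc
Asxl1: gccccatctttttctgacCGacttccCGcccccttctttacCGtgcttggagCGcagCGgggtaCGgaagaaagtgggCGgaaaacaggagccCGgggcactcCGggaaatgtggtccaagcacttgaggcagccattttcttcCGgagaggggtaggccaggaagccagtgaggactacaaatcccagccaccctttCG
Bap1: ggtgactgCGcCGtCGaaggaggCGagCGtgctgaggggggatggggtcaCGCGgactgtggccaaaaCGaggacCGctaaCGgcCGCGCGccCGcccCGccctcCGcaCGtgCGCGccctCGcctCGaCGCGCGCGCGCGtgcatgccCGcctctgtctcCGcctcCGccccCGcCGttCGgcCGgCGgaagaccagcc
The motif CG, which reads the same on both strands, occurs 11 times in the Mysm1 window, 13 times in that of Bcor, 11 times in that of Asxl1 and 35 times in that of Bap1. Over all 32851 windows of the table the median was 4, and 89.1% held at least 1. At least 11 were found in 26.7% of windows, at least 13 in 22.1% and at least 35 in 0.615%. Neither methylation nor binding was measured here, so these counts describe the sequences alone.

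Mysm1 encodes a metalloprotease deubiquitinase with chromatin-binding SWIRM and SANT domains that is known from mice for its part in blood cell formation. Its log2 value was 9.06, 9.11, 9.03, 9.07 and 9.06 in control replicates 1 to 5. In transgene replicates 1 to 4 it was 9.30, 9.42, 9.15 and 9.31. Controls spanned less than 0.1, and the lowest transgene library, replicate 3, is the one with the most Bmi1. Controls averaged 9.07 ± 0.03 (SD, n = 5) and transgene libraries 9.29 ± 0.11 (SD, n = 4), a difference of 0.23 (SE 0.07, 95% interval 0.08 to 0.38). The adjusted p in limma was 0.0921 with stratum terms and 0.00868 in the group-only fit. Full separation upwards was found for this 1 member of 10, and for 9.76% of all tested genes.

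The Mysm1 difference was 0.24 in stratum 1 and 0.23 in stratum 2, so the 2 libraries of stratum 1 and the 5 of stratum 2 gave nearly the same size. With 1 library left out in turn it ran from 0.19 to 0.28. The group-only fit called it in all 9 such settings (adjusted p 0.00303 to 0.0248) and limma with stratum terms in 0 (0.0674 to 0.27). The authors' deposited table lists Mysm1 with a log2 fold change of 0.30 (SE 0.10) and an adjusted p of 0.0291. It is the 1 member in the authors' deposited table, which lists 2.46% of the 17448 symbols with a nonzero value as higher. The induced gene, Bmi1, is not listed there under that symbol.

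BAP1 is a nuclear deubiquitinase and tumour suppressor that needs an ASXL protein for activity on H2A. Bap1 ran from 10.92 to 11.04 in controls and from 10.92 to 10.97 in transgene libraries. The transgene range lay inside the control range, and the difference was -0.04 (95% interval -0.15 to 0.07, adjusted p 0.678 in limma with stratum terms).

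Asxl1 encodes the cofactor that activates BAP1. It stood at 10.38, 10.22, 10.14, 10.21 and 10.29 in control replicates 1 to 5 and at 10.26, 10.44, 10.37 and 10.50 in transgene replicates 1 to 4. Transgene replicates 2 and 4 lay above all controls, while replicates 1 and 3 lay below control replicate 1. The difference was 0.14 (SE 0.08, 95% interval -0.03 to 0.31), with an adjusted p of 0.285 in limma with stratum terms and 0.0949 in the group-only fit. Stratum 1 gave -0.13 and stratum 2 gave 0.26. Without control replicate 1 or transgene replicate 1, the difference was again that of stratum 2, with an adjusted p of 0.0282 in limma with stratum terms. Limma on stratum 2 alone gave an adjusted p of 0.0587.

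USP16 removes ubiquitin from H2A during the cell cycle and is also known to oppose PRC1 at its target genes. Usp16 ran from 10.51 to 10.61 in controls and from 10.43 to 10.61 with the transgene. Only transgene replicate 3 lay below all controls. The difference was -0.04 (95% interval -0.16 to 0.09, adjusted p 0.726 in limma with stratum terms), with -0.02 within stratum 1 and -0.04 within stratum 2. Of the 4 genes on the erasing side, the catalytic genes Bap1 and Usp16 thus had intervals on both sides of 0, and Mysm1 had one above 0 that did not pass the adjusted test.

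RYBP and its paralogue YAF2 replace CBX proteins in variant PRC1, and RYBP binds ubiquitinated H2A through its zinc finger. Rybp stood at 9.88, 9.66, 9.70, 9.71 and 9.78 in control replicates 1 to 5 and at 9.73, 9.75, 10.07 and 9.89 in transgene replicates 1 to 4. Transgene replicates 3 and 4 lay above all controls, and replicates 1 and 2 lay among them. The difference was 0.12 (SE 0.09, 95% interval -0.09 to 0.32, adjusted p 0.471 in limma with stratum terms), at -0.15 in stratum 1 and 0.23 in stratum 2.

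Yaf2 stood at 8.34, 8.45, 8.52, 8.50 and 8.37 in control replicates 1 to 5 and at 8.48, 8.38, 8.35 and 8.32 in transgene replicates 1 to 4. One transgene library, replicate 4, lay below all controls. The difference was -0.05 (95% interval -0.20 to 0.10, adjusted p 0.68 in limma with stratum terms), with the opposite layout to Rybp at 0.15 in stratum 1 and -0.14 in stratum 2. The log2 difference of Rybp over Yaf2 within a library averaged 1.31 ± 0.16 over the controls (SD, n = 5) and 1.48 ± 0.21 over transgene libraries (SD, n = 4), and its ranges overlapped (1.18 to 1.54 and 1.24 to 1.72).

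KDM2B, BCOR and PCGF1 form the variant complex that reads unmethylated CpG islands, and BCORL1 can take the place of BCOR. Kdm2b stood between 10.20 and 10.39 in controls and between 10.24 and 10.37 with the transgene. The transgene range again lay inside that of the controls, with a difference of -0.03 (95% interval -0.17 to 0.10, adjusted p 0.782 in limma with stratum terms). Stratum 1 gave -0.14 and stratum 2 gave 0.01.

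Bcor stood at 10.53, 10.33, 10.35, 10.37 and 10.44 in control replicates 1 to 5 and at 10.48, 10.57, 10.69 and 10.69 in transgene replicates 1 to 4. Transgene replicates 2, 3 and 4 lay above all controls, and replicate 1 lay below control replicate 1 and above the other 4. The difference was 0.20 (SE 0.07, 95% interval 0.04 to 0.36), a 1.15-fold level, with an adjusted p of 0.143 in limma with stratum terms and 0.0239 in the group-only fit. It was -0.06 in stratum 1. In stratum 2 it was 0.31, and limma on that stratum alone gave an adjusted p of 0.0377. Bcor was the 1 member called there, where 2.3% of tested genes were called higher. Without control replicate 1 or without transgene replicate 1 the difference was again that of stratum 2, 0.31 (adjusted p 0.0138 in limma with stratum terms). Bcor and Asxl1 were then the 2 members called, beside 6.14% of tested genes called higher without the control library and 6.12% without the transgene library. In the group-only fit Bcor was called in 4 of the 9 settings that leave out 1 library.

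Bcorl1 stood at 9.240, 8.854, 9.003, 9.021 and 9.044 in control replicates 1 to 5 and at 8.998, 9.082, 9.342 and 9.401 in transgene replicates 1 to 4. Transgene replicates 3 and 4 lay above all controls, and replicate 1 lay below 4 of the 5. The difference was 0.17 (SE 0.12, 95% interval -0.09 to 0.43, adjusted p 0.394 in limma with stratum terms), at -0.24 in stratum 1 and 0.35 in stratum 2. The log2 difference of Bcor over Bcorl1 within a library averaged 1.37 ± 0.07 over the controls (SD, n = 5) and 1.40 ± 0.10 over transgene libraries (SD, n = 4). Once the group means were taken out, both genes varied together between the 9 libraries (Pearson r 0.95, the highest among all pairs of members). This is a description over libraries that share strata and hold variation in 5 directions. Pairs that are not paralogues came near it: Rybp with Bcor (r 0.88) and with Bcorl1 (r 0.85), and Asxl1 with Bcor (r 0.81). Within groups, Yaf2 ran opposite to Bcor (r -0.89) and to Asxl1 (r -0.92) over the same 9 libraries. These values were picked as the most negative among all pairs of members, and the part of transcript length in them was not tested.

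L3MBTL2 is an MBT-domain protein of the variant complex that also holds MGA, E2F6 and PCGF6. L3mbtl2 ran from 8.870 to 8.938 in controls and from 8.896 to 9.002 with the transgene. Transgene replicates 1, 3 and 4 lay above all controls, by small amounts. The difference was 0.05 (SE 0.05, 95% interval -0.06 to 0.16, adjusted p 0.553 in limma with stratum terms), at 0.08 in stratum 1 and 0.04 in stratum 2.

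Mysm1, L3mbtl2, Bap1 and Usp16 had the same sign in both strata, and Mysm1 nearly the same size. For Rybp, Bcor, Bcorl1, Asxl1, Yaf2 and Kdm2b the sign turned, and stratum 2 minus stratum 1 was 0.38, 0.36, 0.59, 0.38, -0.28 and 0.15. A test of that difference in limma called 0 of the 10 genes (0.159% of all tested genes), with adjusted p-values of 0.163 for Bcor and Asxl1, 0.182 for Bcorl1, 0.281 for Yaf2, 0.298 for Rybp and 0.556 for Kdm2b. At an unadjusted p under 0.05 it had 5 of the 10 (these without Kdm2b), beside 16.6% of all tested genes. Stratum 1 has 1 library per group, so its values carry no spread of their own.

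**Figure D2:**
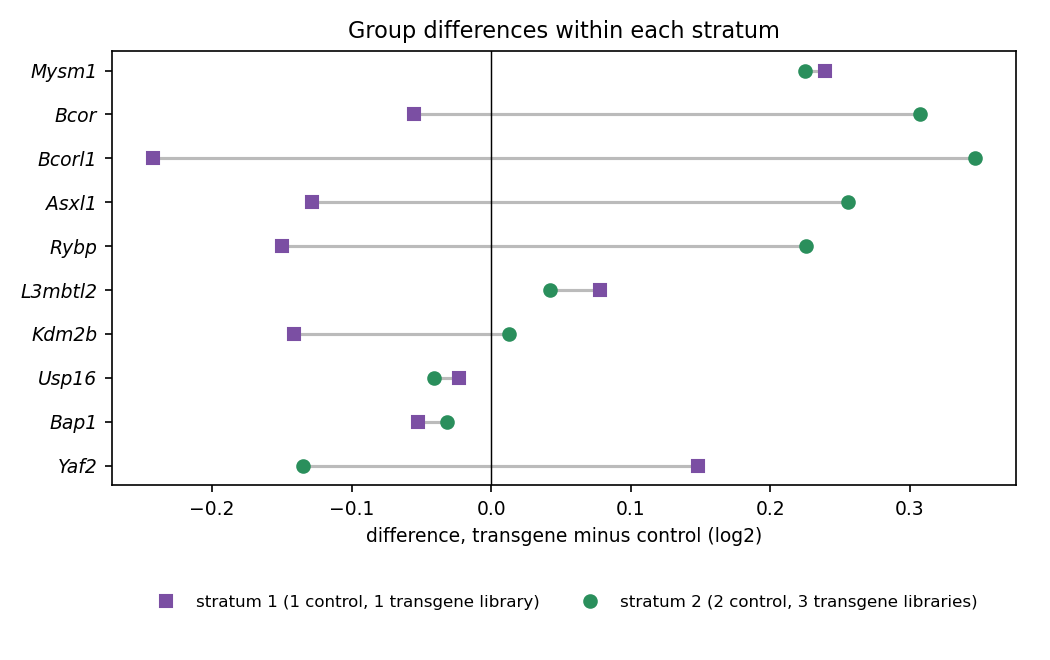
Difference between transgene and control libraries (log2, horizontal axis) for each gene in stratum 1 (squares, 1 library per group) and stratum 2 (circles, 2 control and 3 transgene libraries). The pair of points is almost joined for Mysm1 (0.24 and 0.23) and far apart for Bcorl1 (-0.24 and 0.35).

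The members with the 4 largest differences are also those with the 4 longest transcripts: Bcorl1 (7446 bases), Mysm1 (7420), Asxl1 (6981) and Bcor (6941). Yaf2, with the shortest (1870 bases), had the lowest difference. In these libraries the log2 values varied with transcript length, and taking a smooth trend on length out of each library lowered Mysm1 from 0.23 to 0.12 and Bcor from 0.20 to 0.10. Bcorl1 went from 0.17 to 0.06 and Asxl1 from 0.14 to 0.04, while Rybp, at 4503 bases, went from 0.12 to 0.08. Yaf2 turned from -0.05 to 0.01 and Kdm2b moved from -0.03 to -0.09. With the trend out limma called 0 of the 10 genes with stratum terms, with adjusted p-values of 0.418 for Mysm1 and 0.424 for Bcor. At an unadjusted p under 0.05 it had 0 members, beside 1078 of 14438 tested genes higher and 1207 lower. It also called 0 members in the group-only fit, where 6.16% of 14438 tested genes were called higher. There 2 members were higher and 1 lower at an unadjusted p under 0.05, beside 2233 and 2227 of all 14438. The trend would also take out a true change that follows length.

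**Figure D3:**
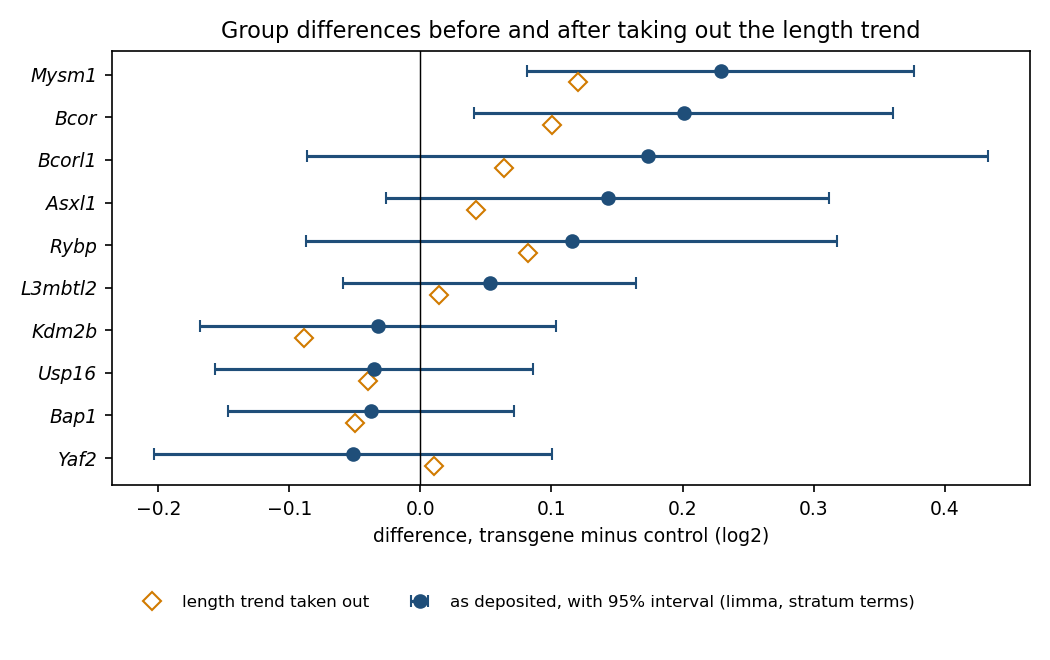
Difference between groups (log2, horizontal axis) for each gene as deposited (filled circles, with 95% intervals from limma with stratum terms) and after the trend on transcript length was taken out of each library (open diamonds). The diamonds of Mysm1 and Bcor lie at 0.12 and 0.10, against 0.23 and 0.20 as deposited.

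Other genes of the same complexes were read from lists of related genes. Over 51 listed genes, 47 were tested, and limma with stratum terms called 0 higher and 1 lower, beside 0.511% and 1.15% of all tested genes. At an unadjusted p under 0.05 it had 6 higher and 6 lower, beside 1620 and 1716 of all 14490. The group-only fit called 7 higher and 6 lower, beside 11.7% and 12.7% of all tested genes. The median difference of the 47 was -0.00.

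Of 9 tested partners of BAP1 other than ASXL1, 8 had a difference above 0, as had 7394 of all 14490 tested genes. Limma with stratum terms called 0 of the 9, with 4 higher at an unadjusted p under 0.05, beside 11.2% of all tested genes. The group-only fit called 4 higher, beside 11.7% of all tested genes. It called 0 of the 9 once the trend on length was removed. The list median was 0.12 (0.00 over all tested genes), at -0.02 in stratum 1 and 0.18 in stratum 2. Ogt, the O-GlcNAc transferase, stood above all controls in all 4 transgene libraries, with a difference of 0.29 (SE 0.10, adjusted p 0.131 in limma with stratum terms). The difference was 0.44 in stratum 1 and 0.23 in stratum 2, and the authors' deposited table gives Ogt a log2 fold change of 0.36 with an adjusted p of 0.0139. Asxl2, a paralogue of Asxl1, differed by 0.22 (adjusted p 0.152), Hcfc1, the chromatin cofactor HCF, by 0.20 (adjusted p 0.145) and Kdm1b, a histone H3 demethylase, by 0.12 (adjusted p 0.172), all in limma with stratum terms. Asxl2 and Hcfc1 resembled Asxl1 in layout, at -0.02 and -0.05 in stratum 1 and 0.32 and 0.30 in stratum 2. Their transcripts are long as well (11934 and 8262 bases), and with the length trend out they were at 0.05 and 0.08, with a list median of 0.05. Ogt was then at 0.23 and Kdm1b at 0.07 (5384 and 4987 bases).

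Of 23 other subunits of variant PRC1, all tested, limma with stratum terms called 0, with 2 higher and 4 lower at an unadjusted p under 0.05 (2 higher and 4 lower by call in the group-only fit). Over all 14490 tested genes 1620 were higher and 1716 lower at that unadjusted p. The group-only fit called 11.7% of them higher and 12.7% lower. The catalytic subunits Ring1 and Rnf2, named for their role and outside the naming rule, differed by -0.10 (adjusted p 0.451) and 0.04 (adjusted p 0.676). Csnk2b, the regulatory subunit of casein kinase 2 in AUTS2 complexes, differed by -0.20 (SE 0.04, adjusted p 0.0565), with all 4 transgene libraries below all controls. Skp1a, a linker protein that joins KDM2B, differed by -0.18 (adjusted p 0.0904), and Hdac1, a histone deacetylase, by -0.15 (adjusted p 0.142). The authors' deposited table lists Csnk2b at -0.25 (adjusted p 0.00629) and Skp1a at -0.21 (adjusted p 0.0375). Mga, the scaffold of the L3MBTL2 complex, differed by 0.23 (adjusted p 0.14). Csnk2b is short (961 bases) and Mga long (13931), and with the length trend out they were at -0.07 and 0.04. Skp1a (1754 bases) was then at -0.11 and Hdac1 (2038 bases) at -0.09. The group-only fit then called 3 of the 23 lower, Skp1a among them (adjusted p 0.039), beside 1051 of 14438 tested genes.

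Among 8 tested genes of other H2A deubiquitinases and their cofactors, 0 were called in limma with stratum terms and 0 had an unadjusted p under 0.05. Eny2, a subunit of the SAGA deubiquitinase module, differed by -0.13 (adjusted p 0.318), Usp21 by -0.08, Brcc3 by -0.06 and Usp3 by -0.05. Usp44 and Usp51 lay below the floor for testing. The 1 called gene of all lists was Uchl3, a ubiquitin hydrolase of the same family as BAP1. It fell by 0.24 (SE 0.05, adjusted p 0.0431 in limma with stratum terms), with -0.31 in stratum 1 and -0.22 in stratum 2, and the authors' deposited table gives it -0.30 with an adjusted p of 0.00368. The call did not hold with any 1 of control replicates 2 to 5 or of transgene replicates 2 and 3 left out (adjusted p 0.0674 to 0.174), nor with the length trend out (-0.24, adjusted p 0.1).

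**Figure D4:**
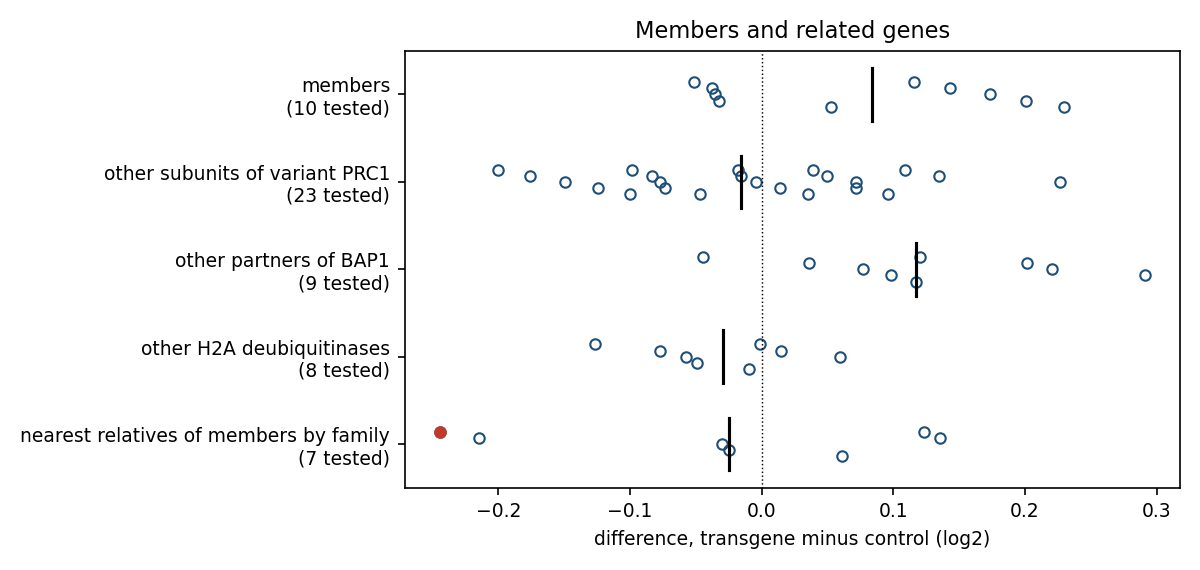
Difference between groups (log2, horizontal axis) for the 10 members and for tested genes of 4 related lists. Circles are genes, black bars are list medians, and the filled circle is Uchl3, the 1 gene called in limma with stratum terms. The 9 partners of BAP1 centre on 0.12, and the 23 other subunits of variant PRC1 on -0.02.

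Several markers of cell types in whole tongue differed between the groups. Keratinocyte and skeletal muscle markers were present at high levels, and no listed marker of the table stood at exactly 0 in every library. For the counts below, limma with stratum terms called 0.511% of all tested genes higher and 1.15% lower. At an unadjusted p under 0.05 it had 11.2% higher. The summed log2 level of 6 fibroblast markers was 16.21 to 16.60 in controls and 16.58 to 16.89 in transgene libraries. Limma with stratum terms called 0 of the 6, with 4 higher at unadjusted p under 0.05 and 2 with a difference below 0. The fibroblast sum was highest in transgene replicates 3 and 4 (16.89 and 16.81), where Rybp and Bcorl1 were highest too. Controls had no such order. Their sum was highest in replicate 2 (16.60), where Rybp (9.66) and Bcorl1 (8.85) were lowest. It was nearly as high in replicate 1 (16.57), where Rybp (9.88) and Bcorl1 (9.24) were highest. The 5 endothelial markers ran from 13.31 to 13.65 and from 13.61 to 13.90, with 0 called (3 higher at unadjusted p under 0.05, as were 11.2% of all tested genes). For the 5 macrophage and other immune markers found, the sum was 10.97 to 11.11 in controls and 11.24 to 11.31 in transgene libraries, and Csf1r, a macrophage receptor gene, was called higher (0.27, adjusted p 0.0418), 1 of 4 tested. The 7 hard keratin markers of filiform papillae ran from 14.54 to 14.87 and from 13.59 to 14.42, with 5 called lower. The sum of 4 salivary gland markers was 11.77 to 11.87 in controls and 11.90 to 12.01 in transgene libraries, with 0 of 3 tested called (1 higher at unadjusted p under 0.05). Differences of these 3 ran from -0.44 to 0.33, with 1 below 0. Basal keratinocyte markers, the cells in which the transgene is driven, ran from 16.95 to 17.17 and from 16.85 to 17.04, with 0 of 6 called (1 higher at unadjusted p under 0.05). The summed levels of suprabasal keratinocyte, skeletal muscle, adipocyte and Schwann cell markers overlapped between the groups, with 0 called. Of the 10 sums, those of hard keratin, immune and salivary gland markers had no overlap. Each sum adds linear values, so its most abundant genes weigh most. The part of cell composition in the differences of Mysm1, Bcor, Asxl1, Bcorl1 and Rybp was not tested.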

How the data were processed

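RNA of whole tongue was measured in 9 libraries. Libraries were stranded and sequenced from one end, per the labels' protocols. TopHat2, HTSeq, DESeq2 and the mm9 build are named in the submitters' processing notes (versions not given in the sources used here). Log2 normalized expression was deposited by the authors for 20512 symbols without counts, so the depth is unknown, beside a table of their own comparison whose log2 fold changes, p-values and adjusted p-values are quoted as the authors'.

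Genes at exactly 0 in every library (3064) and genes with a mean log2 value under 3 were left out, leaving 14490. Strata were found by a search over 3003 partitions of the libraries into 3 sets, of which 1 carried no effect in any gene beyond the group means. The labels do not name them. limma 3.58.1 in R 4.3.3 was fitted over all tested genes with group and stratum terms, a variance prior that follows intensity, and two-sided p-values adjusted by Benjamini-Hochberg over all tested genes. Every adjusted p is from limma unless credited to the authors. The fits were tested on simulated data. Groups follow the genotype labels, and replicates are numbered in accession order, which pairs no libraries. Lengths are those of the longest GENCODE M21 transcript, matched for 14438 tested genes.

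Members and lists were chosen with earlier results of these data known. All members are named, and of each related list the called genes or, with none, the 4 with the smallest p. Alternatives were the group-only fit, other floors and scalings, no variance trend, a length correction (loess per library), single libraries left out and stratum 2 alone. The length correction in the group-only fit, single libraries left out of it, and the test between strata were added after seeing the data.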

Additional observations from a re-analysis of the deposited data

Results flagged for a closer look

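Csnk2b in transgene replicate 4 stood at 11.77, far from the other 3 transgene libraries relative to the range of the group (Dixon's criterion). Chance sets apart about 1 in 20 groups, and none of the groups of the 10 members or of Bmi1 met the criterion.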

How the results depend on the processing

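With stratum terms limma called 74 genes higher and 166 lower over all tested genes, 0 members in either direction, and 0 related genes higher and 1 lower. The group-only fit called 1690 and 1847, with 2 members higher and 7 related genes higher and 6 lower. With no floor 37 genes were called higher and 0 related genes lower. Quantile normalization gave 28 higher and 41 lower, with 0 related genes lower. With the length trend out 0 genes were higher and 4 lower, with 0 related genes lower (1078 higher and 1207 lower at an unadjusted p under 0.05). Stratum 2 alone gave 333 and 400, with 1 member (Bcor) higher, and 1 related gene higher (Hcfc1, adjusted p 0.0466) and 1 lower (Skp1a, adjusted p 0.0439), while Uchl3 was not called (adjusted p 0.0681). With stratum terms, leaving out 1 library in turn gave 0 to 889 genes higher and 0 to 952 lower, 0 to 2 members higher, and 0 to 6 related genes higher and 0 to 3 lower. In the group-only fit it gave 986 to 1698 genes higher and 1272 to 1828 lower, 1 to 3 members higher, and 2 to 8 related genes higher and 6 to 7 lower. The highest counts with stratum terms came without control replicate 1 (889 higher, 952 lower) or transgene replicate 1 (887, 948), which leave stratum 2 as the only stratum with both groups. Without control replicate 3 or transgene replicate 2 limma called 0 genes, against 1031 and 1204 higher at an unadjusted p under 0.05.

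Member differences that turned sign were those of Rybp (-0.15), Bcor (-0.055), Bcorl1 (-0.24), Asxl1 (-0.13) and Yaf2 (0.15) in stratum 1, of Yaf2 with the length trend out (0.0104 in both fits), and of Kdm2b in stratum 2 alone (0.0130). With 1 library left out Kdm2b ran from -0.105 to 0.0130, above 0 without control replicate 1 or 3 or transgene replicate 1. None of these was called. A floor of 6, median centring and no variance trend called 0 members. No paired analysis was possible because the labels give the libraries no replicate numbers. Read depth is unknown, so no counting limit can be set.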
